A study of Oryza sativa with 30 samples.

Results

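The 53 genes described here were counted in every library of shoot apices of the rice cultivar Taichung 65 (T65) and at a much lower level, or not at all, in those of Nipponbare (NB). They were chosen by their measured counts, from 55986 annotated loci, in 3 steps. First, 19149 loci had at least 0.5 CPM (a locus's count per 1000000 counts in genes of that library) in each of the 11 T65 libraries. Of these, 55 had an NB mean of at most 1/5 of the T65 mean, and in 53 of the 55 every NB library also lay below every T65 library. Since the difference between the cultivars selected the genes, it is given below as a description and was not tested.

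The study followed the switch of the rice shoot apex from leaf making to flower making in these 2 temperate japonica cultivars. All plants were grown under long days of 16 h light and 8 h dark. When 6 weeks old they were moved to short days of 10 h light and 14 h dark, and apices were dissected after 0, 4, 8 or 12 short days, day 0 being the plants kept under long days. T65 gave 3 libraries each at days 0, 4 and 8 and 2 at day 12, and NB gave 3 libraries at each of the 4 days. The labels do not say whether libraries of a group came from separate plants or pools, so the spread between them may be partly technical.

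Rice is a short-day plant, in which shorter days lead the leaves to send florigen proteins to the apex, where the meristem then forms a panicle. Cultivars of one subspecies are closely related, but they can differ by deleted, inserted or diverged genes and in the regulatory DNA that sets a gene's level. The loci are named by MSU locus identifiers, an annotation of the NB genome, so each has a gene model in the cultivar that gave few or no reads for it here. In an identifier such as LOC_Os10g10880 the first number is the chromosome and the last part gives the order along it. The files pair no identifier with a gene name or function, and none of the 53 was found in the annotation table at hand, so the genes are described by identifier only. CPM is not corrected for gene length, so levels are compared between libraries and not between genes.

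The libraries held 8611425 to 23793826 gene counts in T65 and 11917951 to 24948806 in NB. Markers of the shoot meristem were present in both cultivars: OSH1 had 110 to 202 CPM in T65 libraries and 121 to 190 CPM in NB libraries, OSH15 had 96.3 to 173 CPM in T65 and 86.3 to 127 CPM in NB, and OSH71 had 43.1 to 75.9 CPM in T65 and 49.96 to 97.7 CPM in NB. Genes of the leaf's light-harvesting proteins were also present. CAB1R had 7.73 to 28.0 CPM in T65 and 9.43 to 78.5 CPM in NB, CAB2R had 7.66 to 39.5 CPM in T65 and 4.21 to 29.2 CPM in NB, and LHCB-b had 16.2 to 64.7 CPM in T65 and 16.8 to 65.1 CPM in NB. The symbols of these markers come from rice nomenclature, not from the files. The libraries fell into 2 sets by the share of multi-aligned reads (reads placed at more than 1 position), 5.76 to 6.71% in 7 libraries and 9.59 to 10.9% in the other 16. This share is given relative to the counts in genes, which do not include such reads. The lower set held T65 day 0 replicates 2 and 3, T65 day 4 replicate 1, T65 day 8 replicates 1 and 2, NB day 8 replicate 3 and NB day 12 replicate 3.

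Summed over the 53 genes, T65 libraries held 1361 to 1633 CPM and NB libraries 30.9 to 46.5 CPM. In such bulk samples, fewer cells of a type that uses a gene and less RNA of it per cell cannot be told apart. Whether a gene with few or 0 NB reads was missing from the plants grown, had reads that could not be placed or was not expressed was not tested. The genes fell unevenly below the limit: of all loci that met the other conditions, 35 had an NB mean of at most 1% of the T65 mean, 9 lay between 1 and 5%, 3 between 5 and 10%, and 6 between 10 and 20%. Most of the 53 were therefore far inside the limit. For 14 genes (26.4%) no read was counted in any of the 12 NB libraries. Another 27 (50.9%) had between 1 and 21 NB counts and an NB mean under 0.1 CPM, a boundary drawn after the values were seen. The remaining 12 (22.6%) kept an NB level of 0.191 to 21.3 CPM.

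**Figure D1:**
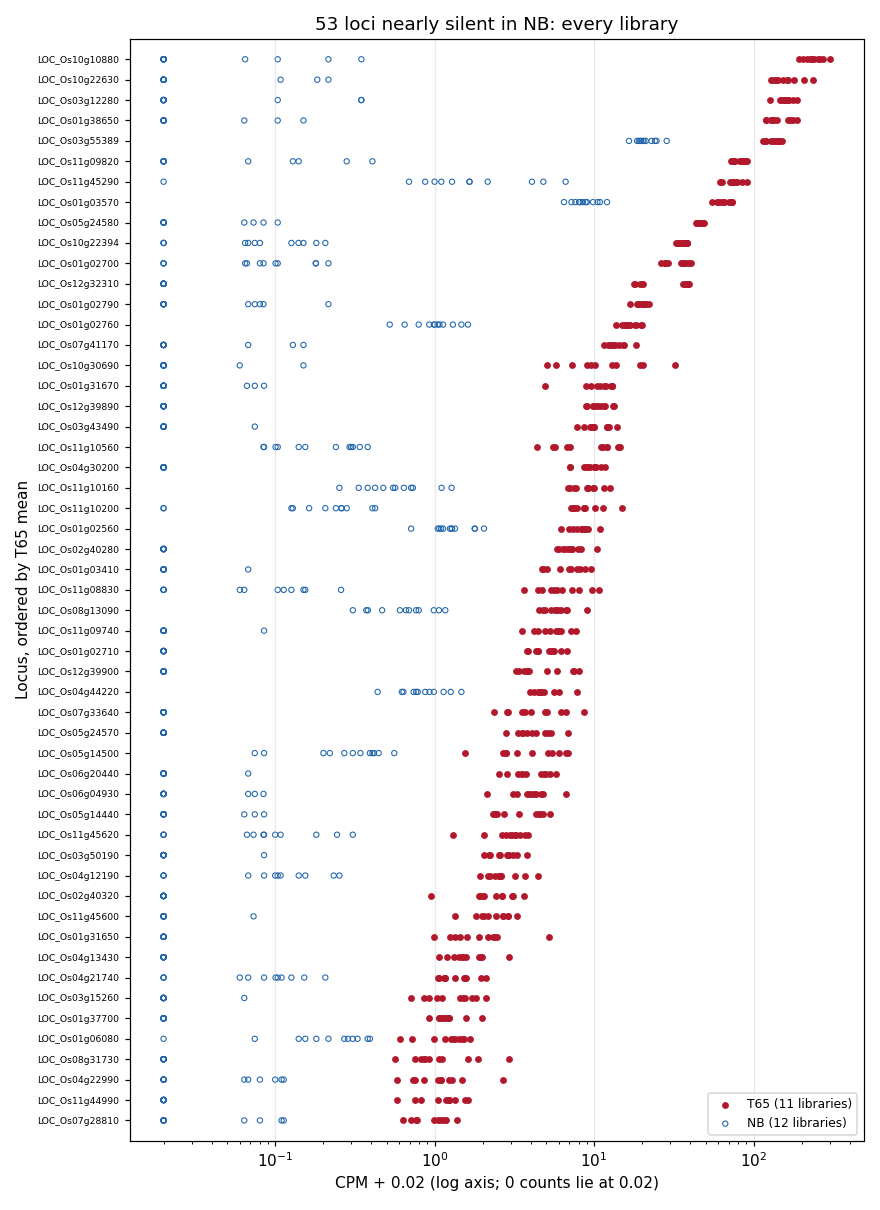
CPM of each of the 53 loci in every library, on a log axis after adding 0.02 so that libraries with 0 counts can be drawn. Filled red points are the 11 T65 libraries and open blue points the 12 NB libraries; the 14 loci without any NB count have all NB points at 0.02, and no NB point reaches a T65 point of its locus.

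The 14 genes with 0 NB counts had T65 means of 1.13 to 29.3 CPM, with a median of 4.46 CPM. A count of 0 sets only an upper limit: 3 counts over the 12 NB libraries together, which hold 220953370 gene counts, correspond to 0.0136 CPM. Against that limit T65 was at least 82.9-fold to at least 2161-fold higher. Such limits and the intervals below cover counting error only.

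LOC_Os12g32310 had the highest T65 level of these 14. Its T65 libraries held 36.0, 18.0 and 19.8 CPM at day 0, 19.3, 38.6 and 37.2 CPM at day 4, 20.2, 17.8 and 38.9 CPM at day 8, and 39.2 and 37.7 CPM at day 12. The values thus formed a low and a high cluster on days 0, 4 and 8, which is taken up with the library sets below, and T65 was at least 2161-fold higher than the NB limit. LOC_Os12g39890 followed with 10.8 ± 1.46 CPM in T65 (SD, n = 11), at least 796-fold higher. LOC_Os04g30200 had 7.00, 9.47 and 11.7 CPM in its lowest, median and highest T65 library (at least 692-fold higher), and LOC_Os02g40280 had 5.79, 7.06 and 10.3 CPM (at least 533-fold higher). In these 3 genes the highest T65 library held less than 2 times the CPM of the lowest.

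The 27 genes with traces of NB counts had T65 means of 0.966 to 239 CPM and included the most counted of the whole set. Their NB means were 0.0148 to 4.95% of the T65 means. LOC_Os10g10880 had 191, 234 and 302 CPM in its lowest, median and highest T65 library and 11 counts over the 12 NB libraries, a ratio of pooled T65 to pooled NB CPM of 4759 (exact 95% interval 2659 to 9534). LOC_Os10g22630 had 129, 153 and 236 CPM in T65 and 8 NB counts, and LOC_Os03g12280 had 127, 159 and 187 CPM in T65 and 12 NB counts. LOC_Os01g38650 had 119, 135 and 187 CPM in T65 and 4 NB counts, a ratio of pooled T65 to pooled NB CPM of 7993 (exact 95% interval 3121 to 29337). These 4 loci were thus above 100 CPM in every T65 library and had few or no reads in every NB library.

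Below them, LOC_Os11g09820 had 72.2, 82.0 and 91.3 CPM in its lowest, median and highest T65 library and 15 NB counts. LOC_Os05g24580 had 45.9 ± 1.74 CPM and LOC_Os10g22394 had 35.8 ± 2.1 CPM in T65 (SD, n = 11), with 4 and 17 NB counts. LOC_Os01g02700 averaged 33.0 ± 5.28 CPM in T65 with 16 NB counts, and LOC_Os01g02790 averaged 19.8 ± 1.45 CPM with 7. All 5 stayed within a factor of 2 between T65 libraries.

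The NB traces of the most counted genes lay mainly in the 2 NB libraries with the lower share of multi-aligned reads. For LOC_Os03g12280, 5 of the 12 NB counts were in NB day 8 replicate 3 and 6 in NB day 12 replicate 3. For LOC_Os10g10880 these libraries held 3 and 6 of the 11 counts. Over the 4 loci with a T65 mean of at least 100 CPM and an NB mean under 0.1 CPM, the 2 libraries held 28 counts (0.833 CPM pooled). The 10 other NB libraries held 7 counts (0.0374 CPM pooled). Every one of the 10 others had 0.252 CPM or less, against 0.819 and 0.849 CPM in the 2. The same sum over all 41 genes under 0.1 CPM in NB, these 4 among them, was 2.48 and 1.37 CPM in the 2 libraries. It was 0.484 to 1.03 CPM in the 10 others. Next in T65 level among the 41 came LOC_Os11g09820, LOC_Os05g24580 and LOC_Os10g22394. Of their NB counts the 2 libraries held 4 and 2 of 15, 0 and 0 of 4, and 2 and 1 of 17. The next 2 with any NB count, LOC_Os01g02700 and LOC_Os01g02790, had 3 and 0 of 16 and 3 and 1 of 7 there. The 2 libraries held 33617709 of the 220953370 gene counts of NB. Below the 4 loci the pattern was thus weaker and varied from gene to gene. Why the traces were placed so was not tested. Leaving the 2 libraries out of the rule kept all 53 genes and added 2. That outcome was nearly fixed in advance, since fewer NB libraries ease the rule's last step, and it says nothing about the traces.

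**Figure D2:**
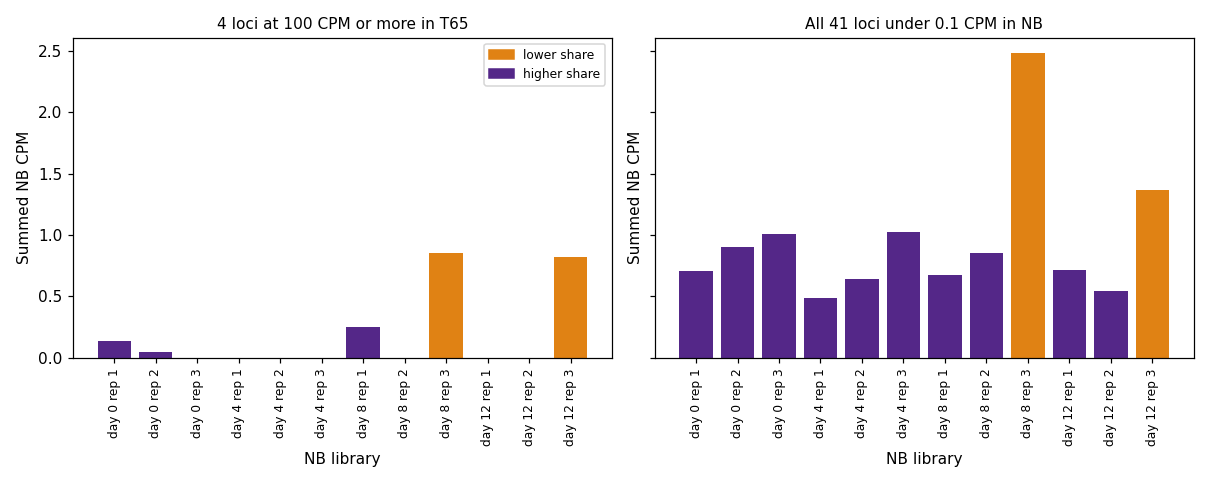
Summed CPM in each NB library, left for the 4 loci with a T65 mean of at least 100 CPM and an NB mean under 0.1 CPM, and right for all 41 loci under 0.1 CPM in NB, with the libraries of the lower share of multi-aligned reads in orange and the others in purple. On the left the orange bars, NB day 8 replicate 3 and NB day 12 replicate 3, stand at 0.849 and 0.819 CPM and every other bar at 0.252 CPM or less.

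The 12 genes that kept an NB level had T65 means of 1.21 to 133 CPM, 5.76- to 49.7-fold above their NB means. LOC_Os03g55389 was the most counted of them in NB: it had 114, 134 and 150 CPM in its lowest, median and highest T65 library and 16.5, 20.4 and 28.5 CPM in NB, 6.25-fold more in T65. LOC_Os01g03570 had 54.9, 64.8 and 73.3 CPM in T65 and 6.46, 8.65 and 12.0 CPM in NB, 7.31-fold more in T65. Both had a steady low level in NB, with every NB library above 5 CPM.

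LOC_Os11g45290, with 61.4, 74.6 and 90.6 CPM in its lowest, median and highest T65 library, was uneven in NB. Its NB libraries held 1.63, 0.85 and 4.78 CPM at day 0, 0, 1.08 and 4.06 CPM at day 4, 0.67, 6.61 and 0.98 CPM at day 8, and 2.13, 1.27 and 1.64 CPM at day 12. On days 0, 4 and 8 the NB replicates of a day spread over several CPM and overlapped those of the other days, and the ratio of means was 34.9.

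At the limit of the rule, the 3 genes nearest to it inside were LOC_Os01g06080 (1.21 ± 0.334 CPM in T65, 0.210 ± 0.118 in NB, NB at 17.4% of T65), LOC_Os04g44220 (5.02 ± 1.09 and 0.868 ± 0.292 CPM, 17.3%) and LOC_Os03g55389 (133 ± 12.0 and 21.3 ± 3.24 CPM, 16.0%). Just outside lay LOC_Os01g60070 (4.12 ± 0.671 CPM in T65, 0.824 ± 0.413 in NB, 20.0%), LOC_Os01g60920 (31.0 ± 2.88 and 6.24 ± 1.51 CPM, 20.1%) and LOC_Os05g27080 (2.68 ± 0.56 and 0.562 ± 0.258 CPM, 21.0%). These are means ± SD over 11 T65 and 12 NB libraries. The 2 loci removed only because libraries of the cultivars overlapped were LOC_Os04g03050, at 2.77 to 23.0 CPM in T65 and up to 4.50 CPM in NB, and LOC_Os07g23510, at 6.12 to 16.1 CPM in T65 and up to 6.44 CPM in NB.

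Most of the 53 genes had few counts in T65. Their T65 means had a median of 6.48 CPM (quartiles 2.74 and 16.8), against 23.5 CPM over all 19149 loci with at least 0.5 CPM in all T65 libraries. Of the 53, 5 averaged at least 100 CPM, 12 at least 20 CPM and 9 under 2 CPM. Their coefficient of variation over the 11 T65 libraries had a median of 23.8%, against 12.7% over the 19149 loci, but lower counts vary more: counting alone would give a median of 9.81% for the 53 and 5.16% for the 19149. Set against loci of like level, the difference was smaller, and it went the other way at the lowest levels. Genes under 2 CPM had a median of 28.9% over 9 of the 53 and 30.0% over 1137 loci, and those of 10 to 100 CPM had 12.6% over 14 and 10.9% over 11308. Between 2 and 10 CPM the medians were 26.1% over 25 and 20.7% over 4457, and from 100 CPM up they were 13.3% over 5 and 8.87% over 2247.

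LOC_Os05g24580 was the steadiest of those with at least 5 CPM, at 43.5 to 48.6 CPM over all 11 T65 libraries. Its coefficient of variation was 3.79%, and counting alone would give 3.69%. LOC_Os10g22394 (5.85%) and LOC_Os01g02790 (7.34%) came next. At the other end LOC_Os10g30690 held 5.05 to 32.1 CPM in T65, a coefficient of variation of 60.8%. It had 10.1, 5.71 and 20.3 CPM at day 0, 5.05, 13 and 9.55 CPM at day 4, 7.28, 32.1 and 9.07 CPM at day 8, and 13.8 and 19.3 CPM at day 12. Its spread lay between replicates of a day as much as between days. LOC_Os11g10560 (38.6%) and LOC_Os12g39900 (36.3%) were the other most variable genes of at least 5 CPM.

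Few of these genes passed a test of change over the short days in T65, but only small shares of all genes tested did. The 53 also typically had lower counts than the 19149 loci, so the numbers that passed say little about them as a group. The day comparisons were not used by the rule, apart from its floor in T65, and were tested with edgeR's quasi-likelihood test over 22839 genes with Benjamini-Hochberg adjustment and a threshold of 0.05. For a difference among the 4 T65 days, 0 of the 53 passed, the lowest adjusted p by edgeR's test was 0.0663, and DESeq2 called 1. Unadjusted, 1 of 53 had an edgeR p below the threshold, against 18.7% of all genes tested. Over all genes tested 3.12% passed by edgeR, as did 3.41% of the 19149 loci, and 7.48% passed by DESeq2. At day 4 over day 0, 0 of 53 passed, where 0.149% of all genes did, and at day 8 over day 0, 0 of 53 passed, where 1.06% did. At both days DESeq2 also called 0, where it called 0.42% of all genes at day 4 and 2.03% at day 8. Unadjusted, 0 of the 53 had an edgeR p below the threshold at either day, against 8.96% and 10.8% of all genes tested. At day 12 over day 0, 1 of 53 passed, which was higher at day 12, where 5.13% of all genes passed in either direction. Unadjusted, 4 of 53 had an edgeR p below the threshold there, against 21.1% of all genes tested. The ratio of the highest to the lowest T65 day mean had a median of 1.38 over the 53 and 1.23 over the 19149 loci. At like level these medians were closer below 100 CPM. They were 1.63 and 1.55 under 2 CPM, 1.40 and 1.37 at 2 to 10 CPM, and 1.19 and 1.19 at 10 to 100 CPM. From 100 CPM up they were 1.27 and 1.17. The ratio was under 1.5 for 34 of the 53, with an upper quartile of 1.58 over the 53 and 1.38 over the 19149 loci. Only LOC_Os08g31730 (2.49) and LOC_Os01g31650 (2.08), both near 1 to 2 CPM, had a ratio of 2 or more.

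The gene that passed at day 12 was LOC_Os10g22630. It had 131, 129 and 162 CPM at day 0, 136, 180 and 153 CPM at day 4, 139, 164 and 141 CPM at day 8, and 207 and 236 CPM at day 12. Both day 12 libraries lay above all 9 earlier ones, while the first 3 days overlapped. The log2 fold change at day 12 over day 0 was 0.67 ± 0.16 (SE), with an adjusted p of 0.0187 by edgeR's quasi-likelihood test. The call rests on few libraries: the adjusted p was 0.253 without T65 day 12 replicate 2, 0.0667 without T65 day 0 replicate 1 and 0.0748 without T65 day 0 replicate 2, while the log2 fold change was 0.59, 0.62 and 0.63. Among the libraries of the higher share of multi-aligned reads it was 0.171, with a log2 fold change of 0.77, and with the library set as a term, added after seeing the data, it was 0.0469, with 0.67. Both day 12 libraries of T65 were in the higher set and 2 of the 3 at day 0 in the lower set, so the set and the day were partly confounded.

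None of the 11 other genes with at least 20 CPM in T65 passed at day 12 in the same fit. The largest change among them was that of LOC_Os12g32310, with a log2 fold change of 0.65 ± 0.37 (SE). At day 0 this gene had 36.0 CPM in the library of the higher set and 18.0 and 19.8 CPM in those of the lower set. Its day 12 libraries, both of the higher set, had 39.2 and 37.7 CPM, so its change cannot be told apart from the library set. LOC_Os01g38650 had a log2 fold change of 0.20 ± 0.14 (SE) and LOC_Os11g09820 one of 0.19 ± 0.16. The log2 fold change was -0.07 ± 0.12 (SE) for LOC_Os05g24580, 0.07 ± 0.13 for LOC_Os10g22394, -0.02 ± 0.18 for LOC_Os03g12280 and 0.15 ± 0.17 for LOC_Os10g10880. These last 4 differed from 0 by less than their errors. For the 53 together, the median log2 change over day 0 was 0.06 at day 4, 0.07 at day 8 and 0.24 at day 12, against 0.00, 0.01 and 0.00 over all genes tested. It was positive for 30, 34 and 38 of the 53 at these days. The day 12 median rests on 1 library. Without T65 day 12 replicate 2 it was 0.06 with 35 of 53 positive, and without T65 day 12 replicate 1 it was 0.28 with 38 positive. T65 day 12 replicate 2 was the shallowest library, at 8611425 counts, and was merged by the authors from several samples. That shallow library held the highest T65 value of 18 of the 53 (34.0%) and of 23.6% of the 19149 loci.

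**Figure D3:**
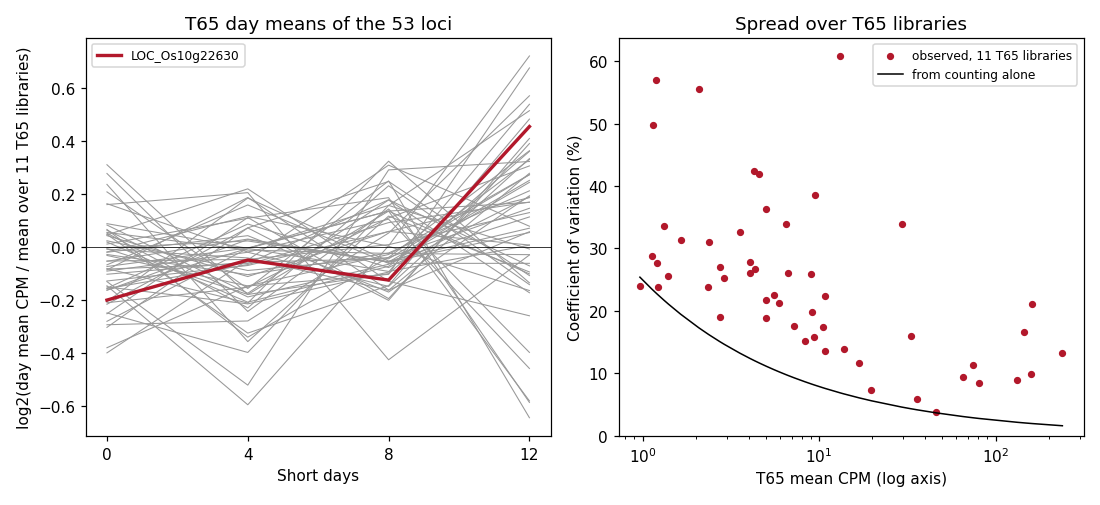
Left, the T65 day means of each of the 53 loci on days 0, 4, 8 and 12, as log2 of the day mean over the locus's mean of 11 T65 libraries, with the locus called at day 12, LOC_Os10g22630, in red. Right, each locus's coefficient of variation over the 11 T65 libraries against its T65 mean CPM on a log axis. A line gives the variation from counting alone, and 43 of the 53 lie above 1.5 times their counting value. Spread above counting was not particular to them: over the 19149 loci the medians were 12.7% observed and 5.16% from counting.

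In NB too few reads were counted to follow most of these genes over days. For a difference among the 4 NB days 2 of the 53 passed in the same fit, where 32.5% of all genes tested did, but the 53 entered the test through their T65 counts. In a model of the NB libraries alone only 8 of the 53 were counted enough to be tested, and 0 passed by edgeR's quasi-likelihood test (adjusted p 0.129 to 0.882, with 0 of the 8 below the threshold unadjusted), where 24.6% of all genes in that model did. DESeq2 on all libraries called 5 of the 53 and 37.2% of all genes. Of the 2 that passed, LOC_Os08g13090 had NB day means of 0.363, 0.785, 0.767 and 0.762 CPM at days 0, 4, 8 and 12 (adjusted p 0.046). LOC_Os11g09820 passed on 15 NB reads in all, with day means of 0.0159, 0, 0.0871 and 0.206 CPM (adjusted p 0.0239). In the model of the NB libraries alone LOC_Os08g13090 had an adjusted p of 0.171, and LOC_Os11g09820 had too few reads to be tested. LOC_Os08g13090 no longer passed in the fit of all libraries when any of NB day 0 replicates 1, 2 and 3, day 4 replicates 1 and 3, day 8 replicates 1 and 3 or day 12 replicate 1 was left out, and LOC_Os11g09820 no longer passed without NB day 12 replicate 1.

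Several of the 53 differed between the libraries of the 2 sets described above. The lower set held no T65 day 12 library and no NB library of day 0 or day 4, so it was not balanced over the days. With the set as a term beside cultivar and day, 5 of 53 passed, where 4.2% of all genes tested did. In libraries of the lower share over those of the higher share, LOC_Os11g10560 (log2 fold change 1.05 ± 0.19, adjusted p 0.0012) and LOC_Os05g14440 (0.79 ± 0.21, 0.0375) were higher. LOC_Os12g32310 (-0.99 ± 0.09, 1.54e-05), LOC_Os01g02700 (-0.48 ± 0.10, 0.00401) and LOC_Os11g10160 (-0.55 ± 0.14, 0.0257) were lower, the errors being SE and the adjusted p-values edgeR's.

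In 8 of the 53 the 5 T65 libraries of the lower share and the 6 of the higher share did not overlap, where 3.02% of the 19149 loci behaved so. LOC_Os12g32310 had 17.8 to 20.2 CPM in the 5 libraries and 36.0 to 39.2 CPM in the 6, the low and the high cluster given above. LOC_Os01g02700 (26.2 to 28.8 against 34.9 to 40.3 CPM) and its neighbour LOC_Os01g02710 (3.78 to 4.44 against 5.17 to 6.72 CPM) were also lower in the 5, as was LOC_Os01g03410 (4.70 to 6.13 against 6.90 to 9.53 CPM). The 4 others were higher in the 5 libraries: LOC_Os11g10560 had 11.3 to 14.4 CPM there and 4.39 to 11 CPM in the 6, LOC_Os11g08830 had 6.25 to 10.7 and 3.6 to 5.82 CPM, LOC_Os06g20440 had 4.6 to 5.73 and 2.51 to 3.72 CPM, and LOC_Os05g14440 had 4.3 to 5.30 and 2.30 to 3.36 CPM. Both directions occurred. What sets the libraries apart was not tested.

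**Figure D4:**
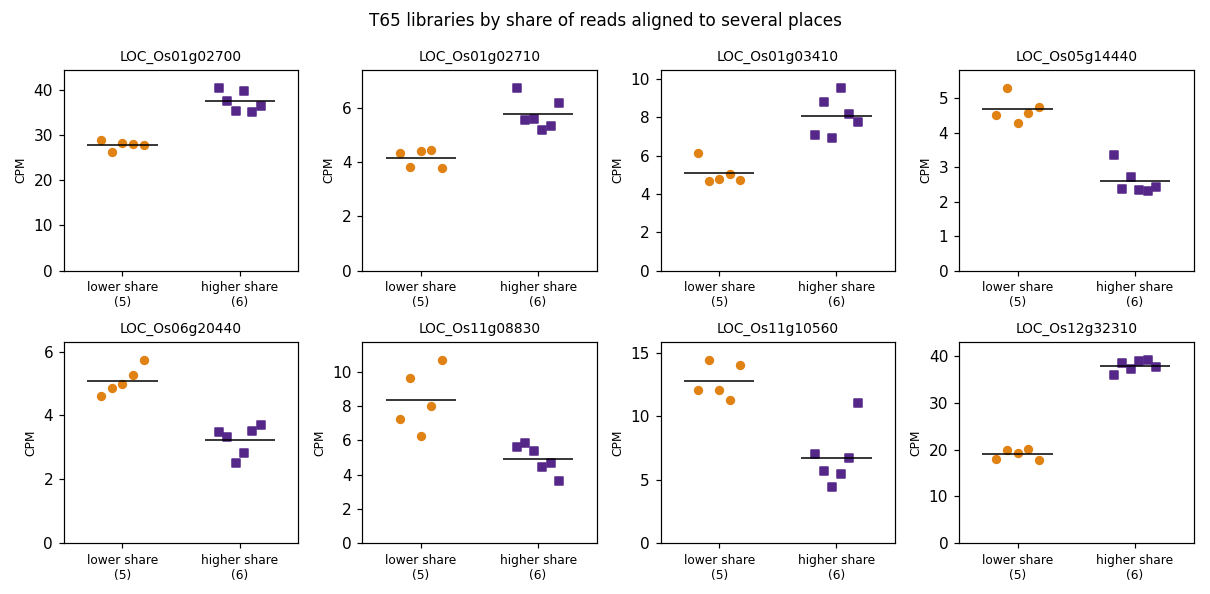
CPM of the 8 loci whose T65 libraries do not overlap between the 5 libraries of the lower share (left in each panel) and the 6 of the higher share (right) of multi-aligned reads; each point is a library and each line the mean of its set. LOC_Os12g32310, for one, lies at 17.8 to 20.2 CPM on the left and 36.0 to 39.2 CPM on the right.

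The 53 genes were spread over 11 of the 12 chromosomes. Chromosome 1 held 12 of them (0.442% of its loci with at least 0.5 CPM in all T65 libraries), chromosome 11 held 10 (1.00%), chromosome 4 held 6 (0.361%) and chromosome 10 held 4 (0.427%), against 0.277% for all chromosomes. Chromosome 9 held 0 of 1065. Chromosome 11 thus had the highest share.

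Immediate neighbours among the 53 formed 3 pairs and no longer run. In the pair LOC_Os01g02700 and LOC_Os01g02710, both were lower in the 5 T65 libraries of the lower share, and the first had 16 NB counts and the second 0. In the pair LOC_Os05g24570 and LOC_Os05g24580 the first had 2.79, 4.07 and 6.84 CPM in its lowest, median and highest T65 library and 0 NB counts, beside the very steady second with 4. In the pair LOC_Os12g39890 and LOC_Os12g39900 both had 0 NB counts in all 12 libraries. LOC_Os12g39900 varied more in T65 (3.22, 3.86 and 8.03 CPM in its lowest, median and highest library) than LOC_Os12g39890 (8.91, 10.5 and 13.2 CPM). When only loci with at least 0.5 CPM in all T65 libraries were counted as neighbours there were 8 pairs with 16 of the 53, again none longer.

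Looser groupings were longer. When genes at most 100 places apart in the list of loci were joined, a distance chosen after the values were seen, there were 10 stretches that held 31 of the 53. The longest was LOC_Os01g02560 to LOC_Os01g03570, near the start of chromosome 1, with 7 of the 53 in 94 places. It held LOC_Os01g02560 (8.29 CPM in T65, 1.30 CPM in NB), LOC_Os01g02700, LOC_Os01g02710, LOC_Os01g02760 (16.8 CPM in T65, 1.02 CPM in NB), LOC_Os01g02790, LOC_Os01g03410 (6.70 CPM in T65, 1 NB count) and LOC_Os01g03570. Between them lay 38 other loci with at least 0.5 CPM in all T65 libraries. These had a median log2 ratio of T65 to NB of 0.04 (-0.70 to 0.76), and 0 of the 38 differed more than 2-fold.

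The second stretch, LOC_Os11g08830 to LOC_Os11g10560, held 6 of the 53 in 164 places, among them LOC_Os11g09820 and LOC_Os11g10560. Its 52 other loci that reached the T65 floor had a median log2 ratio of 0.03 (-0.71 to 1.54), and 2 of them differed more than 2-fold. The stretch also held 6 loci that met the rule with the cultivars exchanged, far lower in T65 than in NB. The third, LOC_Os11g44990 to LOC_Os11g45620, held 4 of only 9 loci that reached the T65 floor in 61 places: LOC_Os11g44990, LOC_Os11g45290, LOC_Os11g45600 and LOC_Os11g45620. Its 5 other such loci had a median log2 ratio of -0.08 (-0.46 to 0.86), and it held 1 locus that met the exchanged rule. The first stretch held 0 of these. The loci compared here had to reach the T65 floor, which leaves out loci low in T65.

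**Figure D5:**
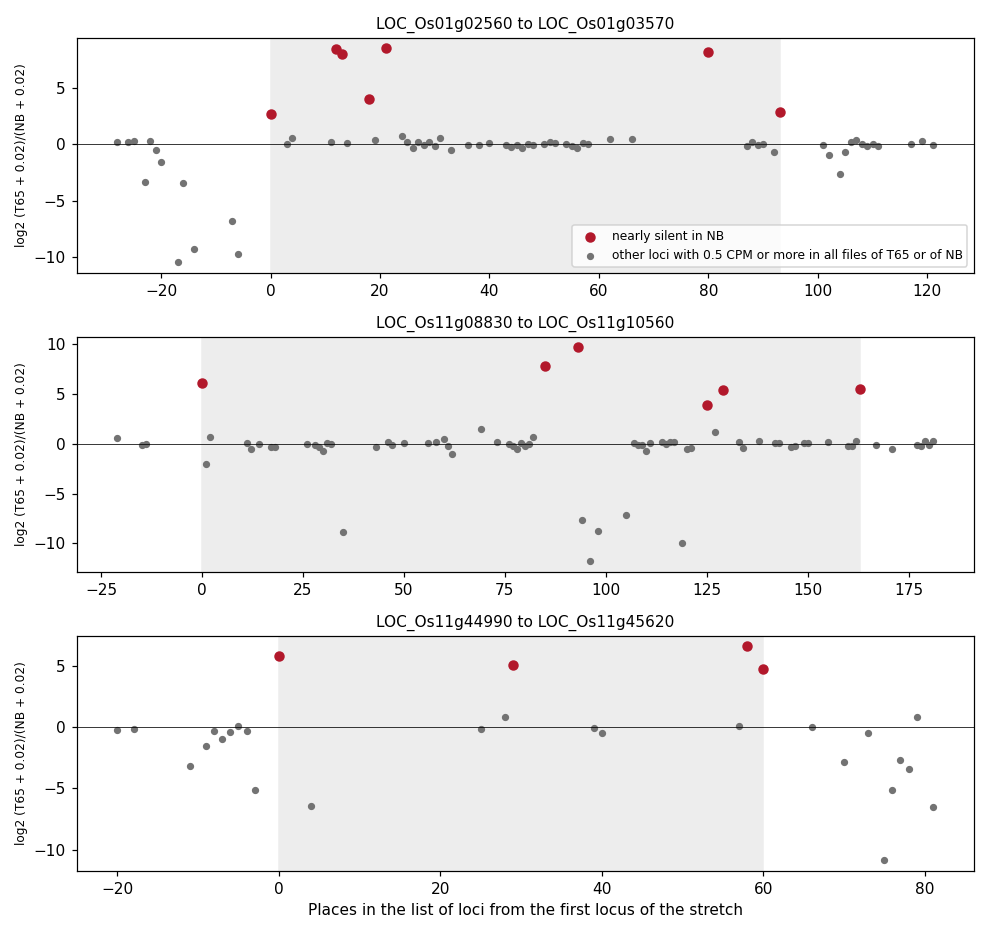
The 3 longest stretches (shaded) and their surroundings, with places in the list of loci from the first locus of the stretch along the horizontal axis and log2 of (T65 mean CPM + 0.02) over (NB mean CPM + 0.02) on the vertical axis. Red points are the genes nearly silent in NB, above 0 in each stretch, and grey points are other loci with at least 0.5 CPM in all libraries of T65 or of NB, most of them near 0 and some far below it.

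The same rule with the cultivars exchanged gave 179 loci far lower in T65, of 19560 with at least 0.5 CPM in all NB libraries. Of the 179, 49 were on chromosome 11. Some kept a level in T65, such as LOC_Os01g03680, with 29.5 CPM in T65 and 185 CPM in NB. Of the 53 genes, 15 (28.3%) lay within 20 places of such a locus, as did 7.88% of the 19149 loci, and 5 (9.43%) lay within 5 places, against 2.32%. These shares are not matched by chromosome: chromosome 11 held 10 of the 53 genes and 997 of the 19149 loci. Nor are the 15 independent, as several share a nearest locus. LOC_Os01g02560, LOC_Os01g02700 and LOC_Os01g02710, for example, all lay nearest to LOC_Os01g02500. LOC_Os11g09820 lay next to one of them, LOC_Os11g09830, which averaged 0.00395 CPM in T65 and 4.79 ± 2.77 CPM in NB (SD, n = 12). LOC_Os04g30200 lay 2 places from LOC_Os04g30180, with 0.0228 CPM in T65 and 15.3 ± 2.37 CPM in NB. LOC_Os02g40280 and LOC_Os02g40320, both without NB counts, lay between LOC_Os02g40260 (0 to 2.94 CPM in T65, 3.68 to 109 CPM in NB) and LOC_Os02g40340 (0.142 CPM in T65, 18.9 ± 2.54 CPM in NB). Genes far lower in NB and loci far lower in T65 thus lay 1 or 2 places apart here.

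None of 35 loci listed for inflorescence identity, internode, photoperiodic flowering, panicle and leaf, clock and blast resistance genes was among the 53, and 23 of the 35 reached the T65 floor. With 0.277% of all loci at that floor among the 53, a count of 0 in 23 says little. The list pairs symbols with identifiers from rice nomenclature and is not complete, so the 53 may hold genes of these groups that it does not name. In particular LOC_Os03g55389, the most counted of the 53 in NB, is not on the list and may be a known flowering gene. No source at hand pairs it with a name, so this was not settled.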

How the data were processed

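The deposited files hold raw counts per locus, 1 file for each of 23 libraries. The labels hold 30 samples, and 5 libraries were merged by the authors from several samples. These 5 were T65 day 4 replicate 2, T65 day 12 replicate 2, NB day 4 replicates 1 and 3 and NB day 8 replicate 1. The submitters' processing notes name TopHat2 with Bowtie2, HTSeq, edgeR 3.6.4 and R 3.1.0. Build, annotation release and strand setting of the counting are not given in the sources used, so a gene cannot be told apart from an overlapping or antisense one. The counts leave out multi-aligned reads, and copies that are nearly identical may therefore be counted too low. Library sizes are sums over loci, without the 5 summary lines at the end of a file. Relative to assigned reads, 4.72 to 5.51% lay in no gene and 2.01 to 2.44% were ambiguous. The labels' cultivar and day define the groups.

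CPM was each count divided by its library's gene total, without scaling factors. Days were compared with edgeR 4.0.16 (limma 3.58.1, R 4.3.3): TMM scaling, edgeR's default filter on low counts, 1 mean per group over all 8 groups, quasi-likelihood tests and Benjamini-Hochberg adjustment over all 22839 genes kept, at a threshold of 0.05. The fit was tested on simulated data. Alternatives were DESeq2 1.42.0, other scaling, filters, floors and ratios, fewer libraries, each library left out, and the replicate number as a block. Same-numbered libraries deviated together in 1 of 15 T65 pairs and 8 of 18 NB pairs (correlation above 0.1), so the numbers were not taken as pairs. In none of the 22 pairs of libraries of one group were the counts alike within sampling noise. Intervals of ratios are exact and two-sided.

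The genes, lists and tests were chosen with earlier results of these data known. Named are the 12 genes with the highest T65 mean, the 6 highest with 0 NB counts, the runs of neighbours, those passing a T65 day test, those nearest the limit of the rule, the 3 steadiest and 3 most variable of at least 5 CPM, and the 3 highest in NB; other genes were named after their values were seen.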

Additional observations from a re-analysis of the deposited data

How the results depend on the processing

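The number of genes was 53 by the rule and stayed within 44 to 71 under the other settings: 55 with TMM-scaled CPM, 62 with a floor of 0.25 CPM, 44 with a floor of 1 CPM, 47 at a ratio of 1/10, 71 at 1/3, 62 among the libraries of the higher share, and 53 to 58 with each library left out. Counts of genes changed over the T65 days were 0 by the main test and 1 with DESeq2. They were 4 without a filter on low counts and 1 with only T65 in the model. Of all genes tested 3.12, 7.48, 7.45 and 4.71% passed, in that order. At T65 day 4 and day 8 the count was 0 under every setting run. Of all genes tested 0.149% and 1.06% passed at these days by the main test, and 1.39% and 2.29% without a filter. At T65 day 12 the count was 1, where 5.13% of all genes passed, and 2 without a filter, where 6.11% did. It was 0 without T65 day 0 replicate 1 (2.90% of all genes) and 0 without T65 day 0 replicate 2 (2.41%). Over the NB days the count was 2 (32.5% of all genes tested), 5 with DESeq2 (37.2%), 1 without scaling factors (31.6%) and 6 without a filter (22.9%). It was 0 with only NB in the model, where 8 of the 53 were tested (24.6%). With the library set as a term, added after seeing the data, it was 4 (31.9%). With each library left out it was 1 to 3 (26.1 to 40.4%). The causes were not tested. With the replicate number as a block the counts were 0 over the T65 days, 1 at T65 day 12 and 1 over the NB days. Of all genes tested 2.90, 5.30 and 34.6% passed there, in that order. Across the library sets 5 genes passed with all libraries, where 959 of 22839 genes passed. With only T65 in the model 7 passed, where 628 of 21668 genes did. Pairs of immediate neighbours numbered 3, or 8 among loci that reached the T65 floor, and stretches numbered 10. Depth limits the genes of few counts most: under 2 CPM the median spread over T65 libraries was 28.9%, and for 14 genes NB allows only an upper limit.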
